A study of Mus musculus with 6 samples.

Results

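The 10 genes described here belong to the acid-base machinery of the kidney tubule and were chosen by name: *Atp4a*, *Atp6v1b1*, *Atp6v1g3*, *Atp6v0d2*, *Slc4a1*, *Slc4a9*, *Slc26a4*, *Car2*, *Rhcg* and *Foxi1*. They are 10 of the 26903 gene symbols listed over the 6 libraries, and all 10 were found in every library. Single-cell RNA sequencing was performed on renal cortex of 9-month-old mice, with 3 wild type (WT) libraries and 3 libraries from *Prdm16* global knockout (KO) mice, 1 library a mouse. All 6 mice were labelled male, and no treatment was given in the labels. The KO allele lacks exon 2 of *Prdm16*, which encodes a zinc finger transcriptional regulator, in all cells of the animal, so an effect within a cell class cannot be told apart from one that arises elsewhere in the body.

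Acid secretion in the distal nephron is carried out mainly by intercalated cells. Type A cells pump protons into the urine with a vacuolar H+-ATPase, while the chloride/bicarbonate exchanger AE1 (*Slc4a1*) returns bicarbonate to the blood. Type B and non-A cells instead carry the apical exchanger pendrin (*Slc26a4*). Carbonic anhydrase II (*Car2*) supplies protons and bicarbonate, Rhcg moves ammonia, and the forkhead factor Foxi1 is needed for intercalated cells to form. *Atp4a* encodes the catalytic subunit of the H,K-ATPase known as the acid pump of the stomach, which in that organ works with the subunit encoded by *Atp4b*.

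Barcodes with 500 to 60000 UMIs (unique molecular identifiers, counted as RNA molecules), 200 to 8000 genes and at most 50% mitochondrial UMIs were kept, and 3539 to 6277 cells a library remained after doublet removal, 28492 in all. Libraries WT 2 and KO 1 held *Xist* at 297 and 307 CPM (UMIs of a gene scaled to a common library sum) and Y-linked transcripts at no more than 0.0612 CPM, against 109 to 133 CPM of Y-linked transcripts in the other 4, which goes against the label male for these 2. Results are therefore also given without them. *Prdm16* itself stood at 28.6 ± 3.00 CPM in the WT mice against 23.4 ± 2.03 CPM in the KO mice cells (SD, n = 3 libraries), but counts from the 3′ end do not show whether exon 2 is present and check nothing of the deletion. Levels below are CPM of all UMIs of a class in a library.

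Cells were grouped without the 10 genes and a wider list of 62 acid-base genes, and classes were named from other markers. The loop of Henle, thick ascending limb-like class (LOH-like, 3448 cells) held *Umod* at 31659 CPM in WT. The others used here were macula densa-like (496 cells), distal convoluted tubule-like (DCT-like, 1738), connecting tubule-like (CNT-like, 1173), principal cell-like (PC-like, 3377), intercalated type A-like (595) and intercalated type B and non-A-like cells (644). The type A-like cells held more *Aqp6* (2165 against 88.8 CPM), *Kit*, *Dmrt2* and *Clnk* than the type B and non-A-like cells, but less of the fifth type A marker, *Jag1* (39.6 against 123 CPM). The type B and non-A-like cells held more *Insrr* (956 against 40.6 CPM), *Spink8* and *Sh2d4b*, whereas *Oxgr1*, on the same list, was lower (453 against 657 CPM) and *Ralyl* was near 0 in both. A cluster of 2021 cells, with library medians of 968 to 1404 UMIs, carried intercalated, principal and connecting tubule markers together and is called the unnamed distal cluster. Its cells were of very unequal depth: those with 5000 UMIs or more, a limit chosen after seeing the data, were 19.6% to 41.1% of its cells in a library and held at least 82.8% of its UMIs, so that its levels are mostly those of deep cells. Whether these are doublets left after doublet removal was not tested. A further 304 shallow intercalated cells were given no subtype.

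Promoters are shown for 2 proton pump genes, the one with the largest genotype difference and the one with a match to the forkhead core, the motif class that Foxi1 binds. RefSeq sequences (build GRCm38.p6) covered 6 of the 10 genes from 250 bases before to 50 bases after the start. The core searched was TAAACA, or TGTTTA on the other strand, and it is marked in capitals. The first is on chr7:30711959-30712258 (+ strand) and the second on chr6:83742767-83743066 (+ strand).
Atp4a promoter: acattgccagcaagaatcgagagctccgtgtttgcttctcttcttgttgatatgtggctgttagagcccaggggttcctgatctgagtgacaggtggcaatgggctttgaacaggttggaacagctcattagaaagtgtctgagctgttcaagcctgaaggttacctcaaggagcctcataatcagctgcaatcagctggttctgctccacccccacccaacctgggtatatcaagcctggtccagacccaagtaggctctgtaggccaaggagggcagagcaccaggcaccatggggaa
Atp6v1b1 promoter: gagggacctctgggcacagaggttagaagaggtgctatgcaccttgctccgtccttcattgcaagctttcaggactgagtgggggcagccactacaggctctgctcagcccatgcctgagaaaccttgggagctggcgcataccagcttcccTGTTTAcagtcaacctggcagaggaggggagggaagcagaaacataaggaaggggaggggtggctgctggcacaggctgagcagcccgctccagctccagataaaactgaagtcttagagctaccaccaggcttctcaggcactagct
The core was found in 1 of the 6 promoters, that of *Atp6v1b1* at position -98 from the start, and in 13.4% of the 32851 promoters of the same length. The *Atp4a* window held none. A match is a run of letters and not a measured binding site.

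The *Atp4a* gene lies on chromosome 7 from 30712209 to 30725534 (GRCm38), and *Atp6v1b1*, for the V1 subunit B1 found in acid-secreting cells, on chromosome 6 from 83742990 to 83758855. *Atp6v1g3* (V1 subunit G3) is on chromosome 1 from 138273738 to 138289462, and *Atp6v0d2* (V0 subunit d2) on chromosome 4 from 19876841 to 19922605. In WT cells the 3 V-ATPase genes were highest in the intercalated classes. *Atp6v1g3* reached 2797, 2706 and 2754 CPM in the 3 WT type A-like samples and 3886, 3270 and 3995 CPM in the type B and non-A-like samples. The groups did not overlap, and the next named class, PC-like, was 11.0 times below the type A-like mean at 251 ± 67.9 CPM. *Atp6v0d2* stood at 2271 ± 273 CPM in type A-like, 2399 ± 113 CPM in type B and non-A-like and 187 ± 56.1 CPM in PC-like cells. The B1 subunit gene was less restricted, at 1480 ± 86.1 CPM in type A-like, 1211 ± 108 CPM in type B and non-A-like, 471 ± 48.9 CPM in PC-like and 205 ± 16.3 CPM in LOH-like cells. These levels are descriptions, with no test of one class against another.

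**Figure D1:**
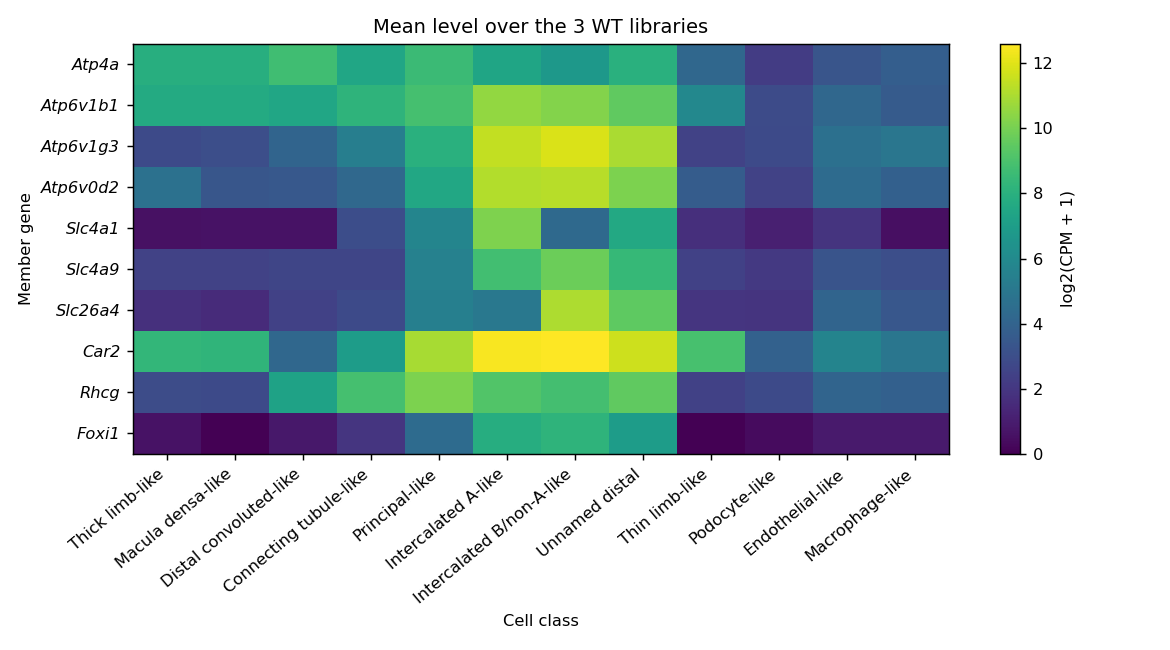
Mean level of the 10 genes (rows) over the 3 WT libraries in 12 cell classes (columns), as log2(CPM + 1) by colour. Most rows, among them *Atp6v1g3* and *Slc26a4*, are brightest in the intercalated columns, whereas *Atp4a* is spread over the distal tubule classes.

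The exchangers separated the intercalated classes. *Slc4a1* (chromosome 11, 102348824 to 102366203) was at 1217, 1090 and 1114 CPM in the WT type A-like samples, and at 18.8, 36.2 and 2.08 CPM in the type B and non-A-like samples. *Slc26a4* (chromosome 12, 31519827 to 31559969) ran the other way, with 2310, 1842 and 2083 CPM in type B and non-A-like and 54.7, 27.0 and 13.5 CPM in type A-like samples. The WT means differed 60.0 times for *Slc4a1* and 65.5 times for *Slc26a4*, and neither gene had been used to form the classes. When each cell was thinned to 1000 UMIs, a *Slc4a1* UMI was found in 63.1% ± 4.07 of WT type A-like cells and in 0.809% ± 0.622 of type B and non-A-like cells. *Slc4a9*, the basolateral anion exchanger AE4 of type B cells, was 2.01 times higher in type B and non-A-like (865 ± 33.1 CPM) than in type A-like cells (431 ± 34.4 CPM). The unnamed distal cluster held both exchangers, *Slc4a1* at 195 ± 35.3 CPM and *Slc26a4* at 713 ± 58.2 CPM. In its WT cells below 5000 UMIs, *Slc4a1* was at 59.0 to 88.8 CPM and *Slc26a4* at 323 to 568 CPM.

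**Figure D2:**
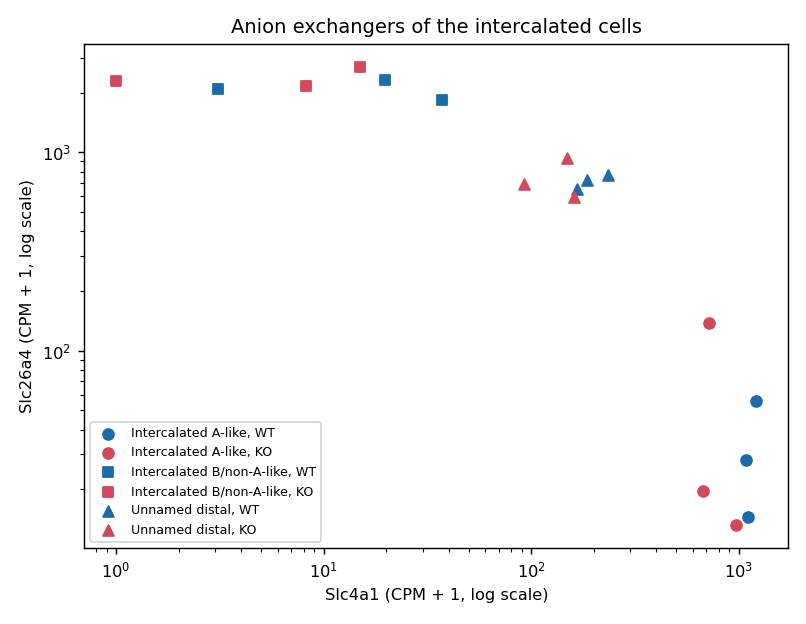
*Slc4a1* (x axis) against *Slc26a4* (y axis), both as CPM + 1 on log scales, with 1 point for each library in the intercalated type A-like, type B and non-A-like and unnamed distal cells. Type A-like and type B and non-A-like points lie in opposite corners and the unnamed distal cluster lies between them, for WT and KO alike.

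*Car2* (chromosome 3, 14886273 to 14900770) was high in both intercalated classes, at 5582 ± 477 CPM in type A-like and 6175 ± 1471 CPM in type B and non-A-like WT cells, which overlapped. PC-like cells followed with 2003 ± 230 CPM, and LOH-like (323 ± 30.4 CPM) and macula densa-like cells (305 ± 61.2 CPM) overlapped. *Rhcg* (chromosome 7, 79593363 to 79617657) had another order, with its highest WT level in PC-like cells (1099 ± 76.4 CPM), above type A-like cells (579 ± 38.5 CPM). CNT-like cells (475 ± 71.5 CPM) overlapped with both intercalated classes. *Foxi1* (chromosome 11, 34204338 to 34208089) stood at 229 ± 41.2 CPM in type A-like and 287 ± 46.6 CPM in type B and non-A-like cells, against 20.2 ± 11.1 CPM in PC-like cells and no UMI in macula densa-like cells. Of the *Foxi1* UMIs of WT cells, 87.9% fell in the intercalated classes and the unnamed distal cluster.

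Likeness of pattern was measured as Pearson's r of log2(CPM + 1) over 45 values (15 classes in 3 WT libraries), among 10662 genes, and genes outside the 10 are named. The values share libraries, so r is a description. Among the genes nearest to *Atp4a* were *Scnn1a* (r = 0.92), a subunit of the epithelial sodium channel, and *Acss1* (r = 0.91). *Slc4a1* was most like *Aqp6* (0.92), and *Slc26a4* most like *Insrr* (0.96), both of which are subtype markers used to name the classes. The nearest genes to *Atp6v1b1* were *Atp6v0a4* (0.96), the kidney a4 subunit of the same pump, *Tfcp2l1* (0.96) and *Tmem213* (0.96), and to *Rhcg* they were *Rhbg* (0.90), *Aqp3* (0.89) and *Scnn1b* (0.87). *Atp6v1g3* was most like *Guca2a* (0.97), *Atp6v0d2* and *Foxi1* like *Acot3* (0.95 and 0.96), *Slc4a9* like *Hepacam2* (0.96) and *Car2* like *Ociad2* (0.91). *Tmem213* and *Hepacam2*, as intercalated markers, and *Aqp3*, as a principal cell marker, were also used to name the classes.

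*Atp4a* was a distal tubule gene in these data, and it was lower in KO mice. In WT cells it stood at 422 ± 35.8 CPM in DCT-like, 389 ± 29.6 CPM in PC-like, 240.5, 269 and 242 CPM in the 3 WT samples of the unnamed distal cluster, 241 ± 36.0 CPM in macula densa-like and 239 ± 13.1 CPM in LOH-like cells. DCT-like and PC-like libraries overlapped, as did those of the other classes just named. Podocyte-like (3.78 ± 1.25 CPM) and endothelial-like cells (9.06 ± 2.16 CPM) were near 0. Not a single *Atp4b* UMI was counted in any retained cell of either genotype, which allows up to 3 UMIs in all by counting error. *Atp12a*, the other H,K-ATPase gene of the wider list, passed the filter on low counts only in PC-like cells and over all retained cells. Its log2 differences there were -1.23 and -1.48, neither called nor at an unadjusted p under 0.05 with edgeR.

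In LOH-like cells *Atp4a* was at 241, 251 and 225 CPM in the WT mice against 47.4, 59.0 and 80.5 CPM in the KO mice. The groups did not overlap, and the level fell by 1.91 on the log2 scale (SE 0.16, adjusted p = 4.87e-05, edgeR), to 26.6% of WT. This difference was known from earlier results of these data. PC-like cells held 419, 388 and 359 CPM in the WT mice against 101, 140 and 109 CPM in the KO mice, a fall by 1.71 (SE 0.14, adjusted p = 9.68e-05, edgeR). In macula densa-like cells the values were 277, 241 and 205 CPM in the WT mice against 105, 66.5 and 121 CPM in the KO mice. That fall was by 1.25 (SE 0.19, adjusted p = 0.000371, edgeR), and again no KO library reached the lowest WT library. The summed thick limb markers of the macula densa-like cells were 9523 to 10292 CPM in WT and 13139 to 16645 CPM in KO libraries. Their part in the macula densa-like results was not tested. In the unnamed distal cluster, where the KO libraries held 58.5, 82.7 and 90.0 CPM, *Atp4a* fell by 1.74 (SE 0.18, adjusted p = 0.000205, edgeR). The make-up of this cluster differed too, with summed connecting tubule markers at 24140 to 29873 CPM in WT and 13237 to 20668 CPM in KO libraries. The part of these markers in the fall was not tested, and KO 2 held 73 cells of the cluster. Its cells below 5000 UMIs held 216 to 245 CPM in WT libraries and 53.3 to 161 CPM in KO libraries, again without overlap. Smaller falls were called in DCT-like and type A-like cells. DCT-like cells had 435, 450 and 382 CPM in the WT mice against 324, 276 and 249 CPM in the KO mice, a fall by 0.55 (SE 0.12, adjusted p = 0.0286, edgeR). The summed connecting tubule markers of the DCT-like cells were 5180 to 5643 CPM in WT and 7005 to 7973 CPM in KO libraries. Their part in the DCT-like results was not tested. Type A-like cells had 183, 131 and 183 CPM in the WT mice against 58.0, 74.4 and 95.1 CPM in the KO mice, a fall by 1.12 (SE 0.20, adjusted p = 0.0191, edgeR). The DCT-like call was lost on leaving out WT 1, WT 2, KO 2 or KO 3 (adjusted p 0.0818 to 0.124, edgeR), and the type A-like call on leaving out WT 1, WT 3 or KO 2 (0.0964 to 0.229).

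**Figure D3:**
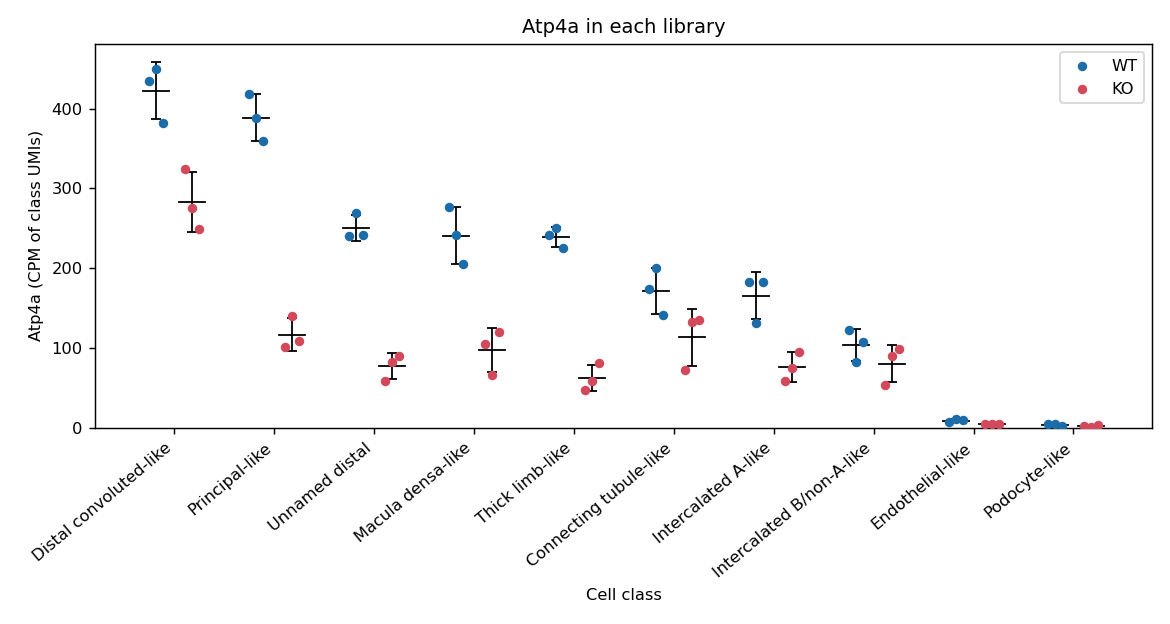
*Atp4a* in CPM (y axis) in 10 cell classes (x axis), with 1 point for each library, a bar at the mean and error bars of 1 SD (n = 3 libraries). WT and KO points are apart in 7 of the distal classes, overlap in type B and non-A-like cells, and lie near 0 in endothelial-like and podocyte-like cells.

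*Atp4a* passed the filter on low counts in 9 classes, was lower in KO in all 9 fits, and was called in 6. The rest were CNT-like (174, 200 and 142 against 72.3, 133 and 135 CPM, log2 difference -0.61, adjusted p = 0.153, edgeR), type B and non-A-like (-0.34, adjusted p = 0.865, edgeR) and podocyte-like cells. The CNT-like difference depended on the cells and libraries kept: it was -1.75 and called with a mitochondrial limit of 30% (adjusted p = 0.0158, edgeR; 17 cells in the smallest library), but -0.30 without KO 1 and -0.19 without both *Xist* libraries. Summed distal convoluted tubule markers in the CNT-like cells were 1530 to 1637 CPM in WT and 879 to 1220 CPM in KO libraries. Their part in the CNT-like results was not tested. The type B and non-A-like difference was -0.07 without KO 1, -0.18 without WT 1 and -0.53 without KO 3. With the 30% limit (13 cells in the smallest library) it was -1.13, and it was called in none of these. Without WT 2 and KO 1, the libraries with *Xist*, the LOH-like difference was -1.71 and the PC-like one -1.61, both still called. Between those 2 libraries alone, LOH-like *Atp4a* was 251 CPM in WT 2 and 47.4 CPM in the KO mice 1. In barcodes of at most 100 UMIs, which hold mostly free RNA, *Atp4a* was 153 CPM in the WT mice against 53.5 CPM in the KO mice, and the part of free RNA in the class values was not tested beyond the near 0 levels of podocyte-like and endothelial-like cells. Thinned to 1000 UMIs, 21.9% ± 1.15 of WT and 6.24% ± 1.18 of KO LOH-like cells had an *Atp4a* UMI, with no overlap. The exact permutation test gave p = 0.1, two-sided, the smallest that 3 against 3 libraries allow. Endothelial-like cells gave a background of 0.776% ± 0.217 in WT and 0.356% ± 0.0645 in KO, at median depths of 1308 to 1566 and 1178 to 1380 UMIs, against 2535 to 10565 and 4367 to 13426 UMIs in LOH-like cells. Without thinning the LOH-like shares were 55.8% ± 3.43 and 27.4% ± 6.93.

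The size of the *Atp4a* difference was compared between LOH-like cells and 8 other classes, with the mouse as a block. LOH-like cells, the reference in every pair, held the largest difference of a member in earlier results of these data. That choice favours finding a larger difference in LOH-like cells. The p-values were adjusted over the genes of each fit and not over the 8 pairs. At the limit of 50% mitochondrial UMIs it was larger in LOH-like cells than in CNT-like (difference of log2 changes -1.33, 95% interval -1.62 to -1.04, adjusted p = 9.11e-07, edgeR), DCT-like (-1.40, adjusted p = 0.000386, edgeR) and type B and non-A-like cells (-1.63, adjusted p = 0.000432, edgeR). It was also larger than in type A-like (-0.88, adjusted p = 0.0142, edgeR) and macula densa-like cells (-0.69, adjusted p = 0.0392, edgeR), but the macula densa-like call was lost on leaving out WT 2, WT 3, KO 1 or KO 3, and the type A-like call without WT 1, WT 2 or KO 2. With a limit of 30%, an alternative chosen after seeing the data, 6 classes could be compared and 0 differences were called by edgeR, with 1 at an unadjusted p under 0.05 (DESeq2 was not run for these). The difference from CNT-like cells was then -0.20 (95% interval -1.003 to 0.598), that from macula densa-like cells 0.11 (-0.84 to 1.07), from type B and non-A-like cells -0.82 (-1.75 to 0.12) and from DCT-like cells -1.24 (-1.95 to -0.53, adjusted p = 0.417, edgeR). At that limit the smallest library held 17 CNT-like, 15 macula densa-like and 13 type B and non-A-like cells. Without both *Xist* libraries 4 of the 5 were called, all but the macula densa-like one (-0.43). No difference was called from PC-like (95% interval -0.57 to 0.10), unnamed distal (-0.50 to 0.10) or podocyte-like cells (-1.69 to 0.23). Over all genes, the share called in these fits was 2.08% for CNT-like, 1.33% for DCT-like, 0.592% for type B and non-A-like, 0.794% for type A-like, 0.758% for macula densa-like, 2.63% for PC-like, 1.39% for unnamed distal and 2.04% for podocyte-like cells.

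Within the LOH-like class, cells were split after the values had been seen by which claudin had more UMIs, since Cldn10 and Cldn16 mark different cells of the thick limb. Cells with more *Cldn10* had *Atp4a* at 263, 261 and 240 CPM in the WT mice against 32.8, 41.4 and 58.3 CPM in the KO mice. Cells with more *Cldn16* had 195, 222 and 191 CPM in the WT mice against 72.5, 79.6 and 114 CPM in the KO mice. The log2 ratio of the first to the second was 0.33 ± 0.10 in WT and -1.02 ± 0.11 in KO, with no overlap (exact permutation p = 0.1, two-sided). *Atp4a* was thus higher in the *Cldn10* cells of each WT mouse and lower in those of each KO mouse. In PC-like cells both clusters were lower in KO, one from 571 ± 21.0 to 179 ± 35.0 CPM and the other from 233 ± 64.8 to 49.2 ± 17.5 CPM. The higher cluster had the connecting tubule markers *Slc8a1*, *S100g* and *Trpv5* among its leading genes, beside *Aqp2* and *Aqp3*. Over all PC-like cells of WT libraries, summed connecting tubule markers were 12756 to 16106 CPM and principal cell markers 14297 to 15763 CPM. The clusters of the CNT-like class also differed in *Atp4a*, with a log2 ratio of 2.30 ± 0.41 in WT and 1.52 ± 0.73 in KO libraries. The lower of them had *Slc12a3*, a distal convoluted tubule marker, among its leading genes.

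Among the other members, 5 differences were called, in LOH-like and CNT-like cells. *Atp6v0d2* in LOH-like cells was at 26.3, 30.5 and 18.8 CPM in the WT mice against 112, 48.6 and 72.4 CPM in the KO mice. It rose by 1.63 (SE 0.25, adjusted p = 0.00275, edgeR), a 3.09-fold change, and stayed called on leaving out each library in turn. In the same cells the summed intercalated markers were 280 to 316 CPM in the WT mice against 143 to 186 CPM in the KO mice. The summed type A markers did not fall, at 22.5 to 24.9 CPM in WT and 23.3 to 28.1 CPM in KO libraries. The summed type B and non-A markers were 37.8 to 40.4 CPM in WT and 24.3 to 28.5 CPM in KO libraries. *Foxi1* was below 1 CPM in every library, and the part of intercalated RNA in the *Atp6v0d2* result was not tested. The *Atp6v0d2* call was lost with a mitochondrial limit of 30% (adjusted p = 0.319, edgeR). *Atp6v1b1* fell there by 0.45 (SE 0.09, adjusted p = 0.0122, edgeR), from 205, 221 and 188 CPM to 149, 142 and 156 CPM. *Car2* rose by 0.47 (SE 0.11, adjusted p = 0.0235, edgeR), from 303, 307 and 358 CPM to 462, 492 and 386 CPM. WT and KO values did not overlap for either gene, but the *Atp6v1b1* call was lost without WT 2 (adjusted p = 0.0549, edgeR) or KO 1 (0.0576), and the *Car2* call without WT 1, WT 2, KO 1 or KO 2 (adjusted p 0.0721 to 0.0960, edgeR). Without both *Xist* libraries neither was called (0.145 and 0.173). In CNT-like cells *Car2* rose by 0.75 (SE 0.12, adjusted p = 0.00157, edgeR), from 124, 115 and 136 CPM to 214, 213 and 196 CPM. *Slc4a1* fell there by 1.99 (SE 0.45, adjusted p = 0.0200, edgeR), from 6.99, 5.72 and 7.80 CPM to 2.28, 0.825 and 1.36 CPM, which rests on 60 UMIs in WT and 9 in KO and was lost without any 1 of WT 1, WT 3, KO 1, KO 2 or KO 3. The summed type A markers in these cells were 16.3 to 24.2 CPM in WT and 1.65 to 9.89 CPM in KO libraries, and their part in the *Slc4a1* result was not tested.

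**Figure D4:**
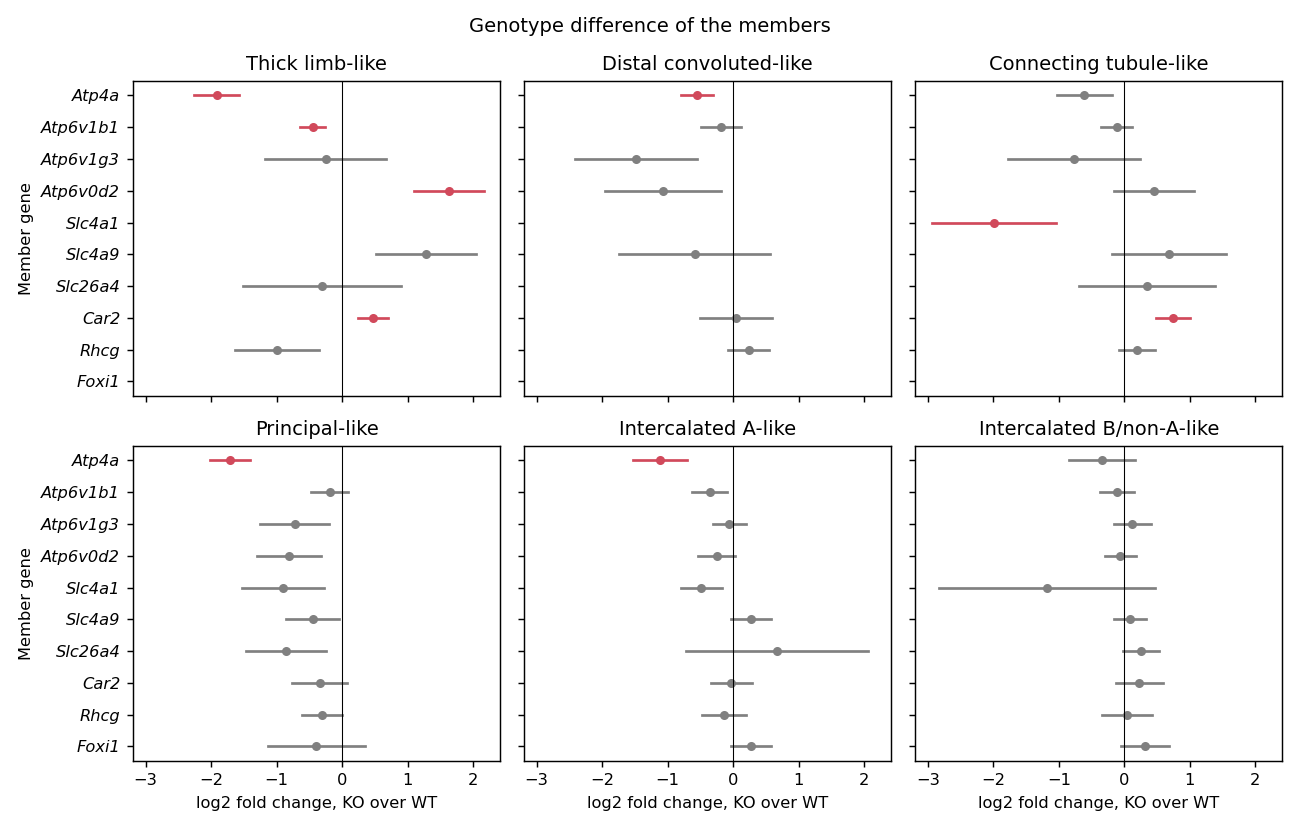
Log2 fold change of KO over WT (x axis) of the 10 genes (y axis) in 6 cell classes, with 95% intervals from the edgeR fit; red marks an adjusted p below 0.05 and a gene with no point did not pass the filter on low counts. *Atp4a* lies left of 0 in all 6 panels, and the type B and non-A-like panel has no red point.

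In intercalated cells, where most members were highest, 9 of the 10 did not pass the test in the type A-like class and none passed in the type B and non-A-like class. Of all tested genes, 0.375% and 0.0124% were called in these classes. In type A-like cells 3 members (*Atp4a*, *Atp6v1b1* and *Slc4a1*) had an unadjusted p under 0.05 with edgeR. In type B and non-A-like cells no member did, and DESeq2 called none. The 95% intervals of the log2 difference in type B and non-A-like cells were -0.16 to 0.40 for *Atp6v1g3*, -0.30 to 0.18 for *Atp6v0d2*, -0.02 to 0.53 for *Slc26a4* and -0.15 to 0.33 for *Slc4a9*. In type A-like cells *Slc4a1* was 1217, 1090 and 1114 CPM in the WT mice against 670, 973 and 716 CPM in the KO mice. These values did not overlap, but the difference of -0.49 missed the threshold (95% interval -0.80 to -0.17, adjusted p = 0.336, edgeR). *Atp6v1b1* went from 1480 ± 86.1 CPM in WT to 1114 ± 67.3 CPM in KO type A-like cells. Its difference of -0.36 missed the threshold too (95% interval -0.63 to -0.09, adjusted p = 0.417, edgeR). *Foxi1* differed by 0.27 (-0.03 to 0.57) in type A-like and by 0.31 (-0.06 to 0.68) in type B and non-A-like cells.

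Over all classes, 94 tests of a member in a class gave 11 calls. The members tested and called, beside the share of all tested genes called, were 8 and 4 in LOH-like (4.41%), 9 and 2 in CNT-like (2.36%), 10 and 1 in PC-like (2.8%), 7 and 1 in DCT-like (1.37%), 3 and 1 in macula densa-like (1.7%), 10 and 1 in type A-like (0.375%) and 10 and 1 in unnamed distal cells (0.589%). No member was called by edgeR or DESeq2 in type B and non-A-like (0.0124%), podocyte-like (1.88%), endothelial-like (0.207%), macrophage-like (0.403%), thin limb-like (0.101%) or proximal tubule-like cells (0.283%; the last had 10 cells in its smallest library), in an unnamed cluster led by *Ccl5* (0.0256%) or in the intercalated cells without a subtype, where 0% of 669 genes were called and 4 of 7 members had an unadjusted p under 0.05. The members' median log2 difference was -0.28 in LOH-like cells, where that of all genes tested was -0.0013, and -0.59 in PC-like cells, where it was 0.0068. In PC-like cells the summed intercalated markers were 636 to 809 CPM in WT and 499.5 to 571 CPM in KO libraries without overlap. The summed type B and non-A markers went the other way, at 341 to 424 CPM in WT and 583 to 744 CPM in KO libraries. The summed type A markers overlapped, at 153 to 247 CPM in WT and 73.5 to 178 CPM in KO libraries. Most members are highest in intercalated cells, and the part of these markers in the median was not tested. Summed over all retained cells, *Atp4a* alone was called, with a fall by 1.48 (SE 0.15, adjusted p = 0.0183, edgeR; 0.593% of all genes were called), and the sum includes shifts in how many cells each class holds. That call was lost without WT 1, WT 2, WT 3 or KO 2 (adjusted p 0.0534 to 0.109, edgeR) and without both *Xist* libraries (0.0757).

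The intercalated classes held a small share of the cells. Type A-like cells were 1.71%, 1.63% and 1.66% of the retained cells in WT and 2.90%, 2.59% and 1.84% in KO. Type B and non-A-like cells were 2.12%, 1.82% and 1.99% in WT and 2.61%, 2.61% and 2.40% in KO. KO shares were above the WT shares without overlap in both classes, but neither passed after adjustment over 19 classes (log2 differences 0.55 and 0.36, adjusted p = 0.103 and 0.139, edgeR on cell counts; exact permutation p = 0.1 for each, two-sided). Shares without overlap, in either direction, were common. They were also found for B cell-like, CNT-like, DCT-like, PC-like, endothelial-like and neutrophil-like cells and the cluster led by *Ccl5*. The type A-like share passed only when KO 3 was left out (0.72, adjusted p = 0.0279, edgeR), and with a mitochondrial limit of 30% both differences were close to 0 (-0.041 and -0.00076). Library medians of mitochondrial UMIs were 35.2% to 39.4% in type A-like and 31.9% to 38.6% in type B and non-A-like cells. That limit therefore removed most cells of both classes.

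A wider list of 62 acid-base genes gave 22 calls in single classes, 13 higher and 9 lower in KO, from 15 genes. These calls rest on the main fit alone. The alternatives run for the members, such as leaving out libraries, a lower mitochondrial limit or DESeq2, were not run for the wider list. Whether its calls would hold under them was not tested. The share of all tested genes called in each class is given in brackets. In CNT-like cells 3 rose and 0 fell of 44 tested (2.36%), in PC-like cells 3 and 0 of 46 (2.8%). In DCT-like cells 2 rose and 0 fell of 42 (1.37%), in macula densa-like cells 1 and 2 of 37 (1.7%), in podocyte-like cells 1 and 1 of 40 (1.88%). In LOH-like cells 46 were tested (4.41%), of which 3 rose and 6 fell, with a median log2 difference of -0.01. Membrane-associated carbonic anhydrases fell there, *Car12* by 1.35 (SE 0.15), *Car15* by 0.74 (SE 0.10) and *Car4* by 0.67 (SE 0.11), with *Car15* at 1202, 1476 and 1294 CPM in the WT mice against 783, 738 and 849 CPM in the KO mice. *Slc9a2*, a sodium-proton exchanger, fell by 0.75, *Atp6v1f*, a V1 subunit, by 0.43, and *Wdr72* by 0.59 (adjusted p = 0.0499, edgeR). *Car15* and *Car4* also fell in macula densa-like cells, by 0.67 and 0.62, while *Slc9a3*, the sodium-proton exchanger NHE3, rose by 1.69. Thick limb markers were higher in the macula densa-like cells of KO libraries, and their part in these differences was not tested. In CNT-like cells *Car15* moved the other way, with a rise of 1.77 from 8.98, 23.2 and 10.4 CPM to 63.5, 59.4 and 21.8 CPM, where KO 3 lay below the highest WT library. The summed type B and non-A markers of the CNT-like cells were 172 to 195 CPM in WT and 499.7 to 562 CPM in KO libraries, through *Spink8* (105 against 499 CPM, pooled), while *Insrr* was at 2.71 and 4.14 CPM, and their part in the *Car15* result was not tested. *Atp6ap2*, an accessory V-ATPase subunit, rose by 0.56 there.

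Ammonia handling genes were among those that rose. *Slc38a3*, the glutamine transporter SNAT3, rose by 2.91 in CNT-like, 3.61 in PC-like and 2.99 in LOH-like cells. Its CNT-like values were 1.66, 4.45 and 2.60 CPM in the WT mice against 24.0, 35.5 and 8.84 CPM in the KO mice, and in LOH-like cells it stayed below 2 CPM in every library. *Glul*, glutamine synthetase, rose by 1.23 in LOH-like, 1.20 in DCT-like and 0.80 in podocyte-like cells. In LOH-like cells *Slc4a4*, the sodium-bicarbonate cotransporter NBCe1, rose by 0.98, at 5.87 to 8.77 CPM in the WT mice against 10.6 to 15.6 CPM in the KO mice. In PC-like cells *Atp6v0e2* rose by 3.38 and *Car5b* by 0.56, and in podocyte-like cells *Slc26a7* fell by 0.54. No gene of the wider list was called in the type A-like or type B and non-A-like cells, where 37 and 38 were tested and 5 in each had an unadjusted p under 0.05 with edgeR. Of all tested genes, 0.375% and 0.0124% were called in these 2 classes.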

How the data were processed

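Renal cortex was dissociated and single cells were captured on the BD Rhapsody platform. Per the study's methods, reads were processed with the BD Rhapsody whole transcriptome pipeline against mm10. The authors deposited raw UMI counts per gene and barcode for each library, and nothing else was used. The 96382945 to 121198131 UMIs a library include all barcodes. Doublets were scored with Scrublet, and since its automatic threshold marked under 0.5% of cells in every library, the top 6% of scores were removed throughout. Libraries shared 0 to 2 barcode numbers a pair. Cells were clustered with Scanpy 1.11.5 (2000 variable genes, 30 components, 15 neighbours, Leiden resolution 1.0), leaving out the members and the wider list, and clusters were named from marker lists.

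Counts were summed per library and class. A class was tested when its smallest library held 20 cells or more, or 10 to 19, which is then stated. Differences were tested with edgeR 4.0.16 (quasi-likelihood, TMM, minimum count 10, Benjamini-Hochberg within a class, threshold 0.05), and DESeq2 1.42.0 was an alternative. The SE is the fold change over the root of its F statistic. The test was checked on simulated data. Intervals for single libraries cover counting error only. Named genes were the 10 members, the called genes of the wider list and the nearest genes in pattern, of which some are not reported here. The members and lists were chosen with earlier results of these data known. Gene positions are from GENCODE vM21 on GRCm38.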

Additional observations from a re-analysis of the deposited data

Results flagged for a closer look

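The *Atp4a* genotype difference was called as unequal between LOH-like cells and 5 other classes at the limit of 50% mitochondrial UMIs. Tested as an interaction with the mouse as a block, the log2 change in LOH-like cells minus that in another class was -1.33 for CNT-like, -1.40 for DCT-like, -0.88 for type A-like, -1.63 for type B and non-A-like and -0.69 for macula densa-like cells. The LOH-like difference was known beforehand as the largest of a member, which favours such calls, and p-values were not adjusted over the 8 pairs. With a limit of 30% none of the 6 differences that could be compared was called by edgeR (1, from DCT-like cells, was at an unadjusted p under 0.05). Those from CNT-like and macula densa-like cells were -0.20 and 0.11, with 17 and 15 cells in the smallest library.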

How the results depend on the processing

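The LOH-like *Atp4a* difference kept its direction and its call under every alternative run, between -1.71 and -2.17 (without KO 3) on the log2 scale. With a mitochondrial limit of 30% there were 3 member calls in place of 11, all of *Atp4a*: those in LOH-like and PC-like cells, and 1 in CNT-like cells (17 cells in the smallest library) that was not among the 11. Library medians of mitochondrial UMIs were 39.9% to 43.8% in LOH-like and 37.0% to 43.2% in CNT-like cells, so this limit removed most of them. With no filter beyond 1 count there were 27 member calls, and DESeq2 gave 13. With the 30% limit the CNT-like *Car2* difference turned to -0.68 (adjusted p = 0.627, edgeR), and the intercalated shares turned to -0.041 for type A-like and -0.00076 for type B and non-A-like cells; the cause was not tested. With the 30% limit, 0 of the *Atp4a* class differences were called by edgeR, of 6 compared (1 at an unadjusted p under 0.05; chosen after seeing the data). Without WT 2, 3 of the *Atp4a* class differences were called instead of 5, and leaving out each library gave 3 to 4. Leaving out each library, the type A-like share differed by 0.41 to 0.72. Mice with the same number in the labels were not treated as pairs in the main fit. In no class did all 3 pairs correlate above 0.1. Over all retained cells, mice numbered 1 and 3 correlated at 0.27 and 0.29, and those numbered 2 at -0.06. Whether mice of the same number share more than that number cannot be told from these values. With the replicate block there were 12 member calls, the LOH-like *Atp4a* difference was -1.95, and the DCT-like one lost its call (adjusted p = 0.0512, edgeR); the shares differed by 0.53 and 0.36. Removing the top 6% of scores as doublets in every library is the same as the procedure used, so it gave no separate value. With 3 mice a group, few intercalated cells and shallow libraries for some classes, small differences cannot be seen.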

Other observations

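V-ATPase subunit genes outside the 10 differed in how they were spread over WT cells. *Atp6v1c2* stood at 918 ± 48.7 CPM in type A-like and 1566 ± 37.0 CPM in type B and non-A-like cells against 13.9 ± 2.73 CPM in LOH-like cells (SD, n = 3 libraries). *Atp6v0a4* stood at 859 ± 6.64 and 908 ± 94.7 CPM in these intercalated classes against 138 ± 2.38 CPM in LOH-like cells. *Atp6v1g1* was more even, at 106 ± 3.08 CPM in LOH-like, 135 ± 5.56 CPM in type A-like, 159 ± 6.18 CPM in type B and non-A-like and 207 ± 18.4 CPM in macula densa-like cells. *Atp6v0a1* was higher in podocyte-like cells (104 ± 5.46 CPM) than in type A-like (31.7 ± 4.06 CPM) or type B and non-A-like cells (41.7 ± 3.67 CPM). *Car12* stood at 2693 ± 480 CPM in type B and non-A-like and 990.2 ± 156 CPM in type A-like cells. These are levels, with no test of one class against another.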
